A study of Mus musculus with 8 samples.

Results

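Lymphocyte marker genes, 9 in number, were followed through RNA sequencing of mouse myocardium after myocardial infarction (MI). They were taken by symbol from the gene table, where 9 of 33249 genes carried a listed name. Cd3d, Cd3e, Cd3g, Cd4 and Cd8a mark T cells, Cd79a, Cd79b and Ms4a1 mark B cells, and Nkg7 marks cytotoxic lymphocytes. Rows were picked by name and not by value, but the markers themselves were chosen with earlier results of these data known. In all, 8 of the 9 genes were among the 15944 genes with a mean count of at least 40 that entered the tests, and Cd79a, with a mean count of 39.6, was not.

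The libraries came from 4 groups with 2 libraries in each, named by their labels as fl/fl-Sham and fl/fl-MI, and as CKO-Sham and CKO-MI. The fl/fl mice were littermates with floxed Piezo1 alleles and no Cre transgene, labelled WT. The CKO mice, labelled Piezo1 knockout, carried the same floxed alleles and a tamoxifen-inducible Cre recombinase (MerCreMer) under the promoter of Myh6, a cardiomyocyte myosin gene. MI was made by tying off the left anterior descending artery (LAD) for good, sham mice had the operation without the tie, and MI hearts were taken at day 42. The deletion was therefore aimed at cardiomyocytes and not at lymphocytes. Tamoxifen is described for the deletion, and whether the fl/fl mice also had it is not stated in the sources used here. Neither the labels nor the methods tie a library to 1 heart or to a pool of hearts, so p-values measure the spread between these libraries only.

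T cells recognise antigen through a receptor that signals by the CD3 chains, with CD4 as the co-receptor of helper and regulatory T cells and CD8 as that of cytotoxic T cells. B cells signal from the surface antibody through CD79a and CD79b and carry CD20, the product of Ms4a1. Nkg7 encodes a membrane protein of cytotoxic granules, which natural killer cells and cytotoxic T cells use to kill target cells. Lymphocytes are sparse in the healthy heart, and infarction is known to draw T and B cells into it, where they take part in inflammation and scar formation.

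The 8 libraries held 73821747 to 88117573 deposited counts. Low counts piled up at multiples of 4, so a read pair was taken as 4 counts, which gives 18455437 to 22029393 pairs per library. Levels below are CPM, counts scaled to a common library size, after TMM, a correction of that size that limits the weight of a few abundant genes. This mattered because genes of the mitochondrial genome held 43.1% to 46.4% of all counts in sham and 19.9% to 24.2% in MI. A count of 0 allows up to 3 read pairs, or 0.113 to 0.203 CPM depending on the library, and this limit covers counting error only. Cardiomyocyte genes summed to 15608 to 32573 CPM across the libraries, so the defining markers of the labelled tissue were present in each.

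The labels were checked first. Piezo1 had 71.8 and 81.5 CPM among fl/fl-Sham libraries, 53.5 and 64.4 CPM among fl/fl-MI libraries, 76.1 and 86.7 CPM among CKO-Sham libraries and 56.9 and 64.8 CPM among CKO-MI libraries. It was not lower under the CKO label in sham or in MI. Other cells of the heart express Piezo1 and the deleted exons are not named in the sources used here, so this whole-gene level checks the deletion poorly. Esr1 is part of the MerCreMer transgene. It had 715 and 404 CPM in the CKO-MI libraries, 7.74 and 330 CPM in the fl/fl-MI libraries, and 5.48 to 8.31 CPM in all 4 sham libraries. Esr1 thus went against the label of fl/fl-MI replicate 2, and in the 2 libraries labelled CKO-Sham it was at the fl/fl-Sham level. Group names below are those of the labels, every direction between genotypes rests on them, and no library was moved.

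The same library, labelled fl/fl-MI replicate 2, also stood apart in tissue markers. The summed level of 5 atrial genes was 19760 CPM there and 2557 to 4502 CPM in the other MI libraries. Bmp10, an atrial growth factor, had 3815 CPM there against 10.3 to 18.6 CPM elsewhere. Member values and list medians that this library moves are given below with and without it.

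The 3 CD3 genes lie together on mouse chromosome 9, and their promoters are shown because their levels varied together across the libraries. Cd3g and Cd3d are read away from each other from starts 1355 bases apart, and the ends of Cd3d and Cd3e lie 11401 bases apart. The promoters run over 300 bases around the RefSeq start (build GRCm38.p6), 5′ to 3′ on the strand of the gene, and a promoter was found for 6 of the 9 genes. Capitals mark AGGAAG or its reverse complement CTTCCT, a core letter string of ETS-family factors, which 35.4% of 32851 promoters held on either strand. Cd3g is at chr9:44980382-44980681 on the minus strand, Cd3d at chr9:44981536-44981835 on the plus strand and Cd3e at chr9:45009562-45009861 on the minus strand.
Cd3g: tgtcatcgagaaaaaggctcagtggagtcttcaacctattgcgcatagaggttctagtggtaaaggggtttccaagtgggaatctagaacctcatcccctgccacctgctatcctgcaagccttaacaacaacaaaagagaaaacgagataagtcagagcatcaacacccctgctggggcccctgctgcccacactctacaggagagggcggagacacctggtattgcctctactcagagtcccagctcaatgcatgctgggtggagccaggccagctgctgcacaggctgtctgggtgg
Cd3d: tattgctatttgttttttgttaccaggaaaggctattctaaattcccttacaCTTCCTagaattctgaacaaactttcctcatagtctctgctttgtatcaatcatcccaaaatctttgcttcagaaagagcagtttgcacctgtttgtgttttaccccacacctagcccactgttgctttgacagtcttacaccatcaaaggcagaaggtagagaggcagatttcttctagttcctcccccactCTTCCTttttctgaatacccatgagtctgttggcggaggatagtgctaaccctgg
Cd3e: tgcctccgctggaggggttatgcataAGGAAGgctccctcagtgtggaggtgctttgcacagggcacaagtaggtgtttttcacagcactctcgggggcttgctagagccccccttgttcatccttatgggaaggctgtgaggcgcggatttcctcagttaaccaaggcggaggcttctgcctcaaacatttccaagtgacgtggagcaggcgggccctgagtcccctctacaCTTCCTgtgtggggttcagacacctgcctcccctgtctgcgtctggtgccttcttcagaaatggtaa
The string occurred 2 times in the Cd3d promoter, 2 times in that of Cd3e and not in that of Cd3g. The promoter of Cd79a, at chr7:24897247-24897546 on the plus strand, is shown beside them as that of a B cell gene.
Cd79a: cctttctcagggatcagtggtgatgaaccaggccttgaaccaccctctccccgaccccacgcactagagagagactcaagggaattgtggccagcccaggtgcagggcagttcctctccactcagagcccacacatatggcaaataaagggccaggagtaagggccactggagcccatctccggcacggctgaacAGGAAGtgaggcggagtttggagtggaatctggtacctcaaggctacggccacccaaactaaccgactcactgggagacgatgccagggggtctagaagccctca
It held the string 1 time. TGTGGT, the core string of RUNX factors, was in none of these 4 promoters and in 16.8% of all promoters on either strand. A match describes letters only.

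Per gene length, all 9 genes were low. Mean FPKM, which the authors scaled to gene length and library size, over the 8 libraries was highest for Nkg7 and Cd8a, at 1.04 and 1.03. It was 0.781 for Cd79b, 0.496 for Cd3g, 0.396 for Cd3d and 0.338 for Cd79a. Cd3e, Cd4 and Ms4a1 were lowest, at 0.269, 0.247 and 0.128 FPKM. Neighbours in this order were not separated by their spread, since each gene ranged over at least 3.04-fold between libraries. Cd79b had the narrowest range, and that of Cd8a reached 16.2-fold. In read pairs the means were 9.91 for Cd79a to 74.3 for Cd8a, so most values below rest on few pairs.

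**Figure D1:**
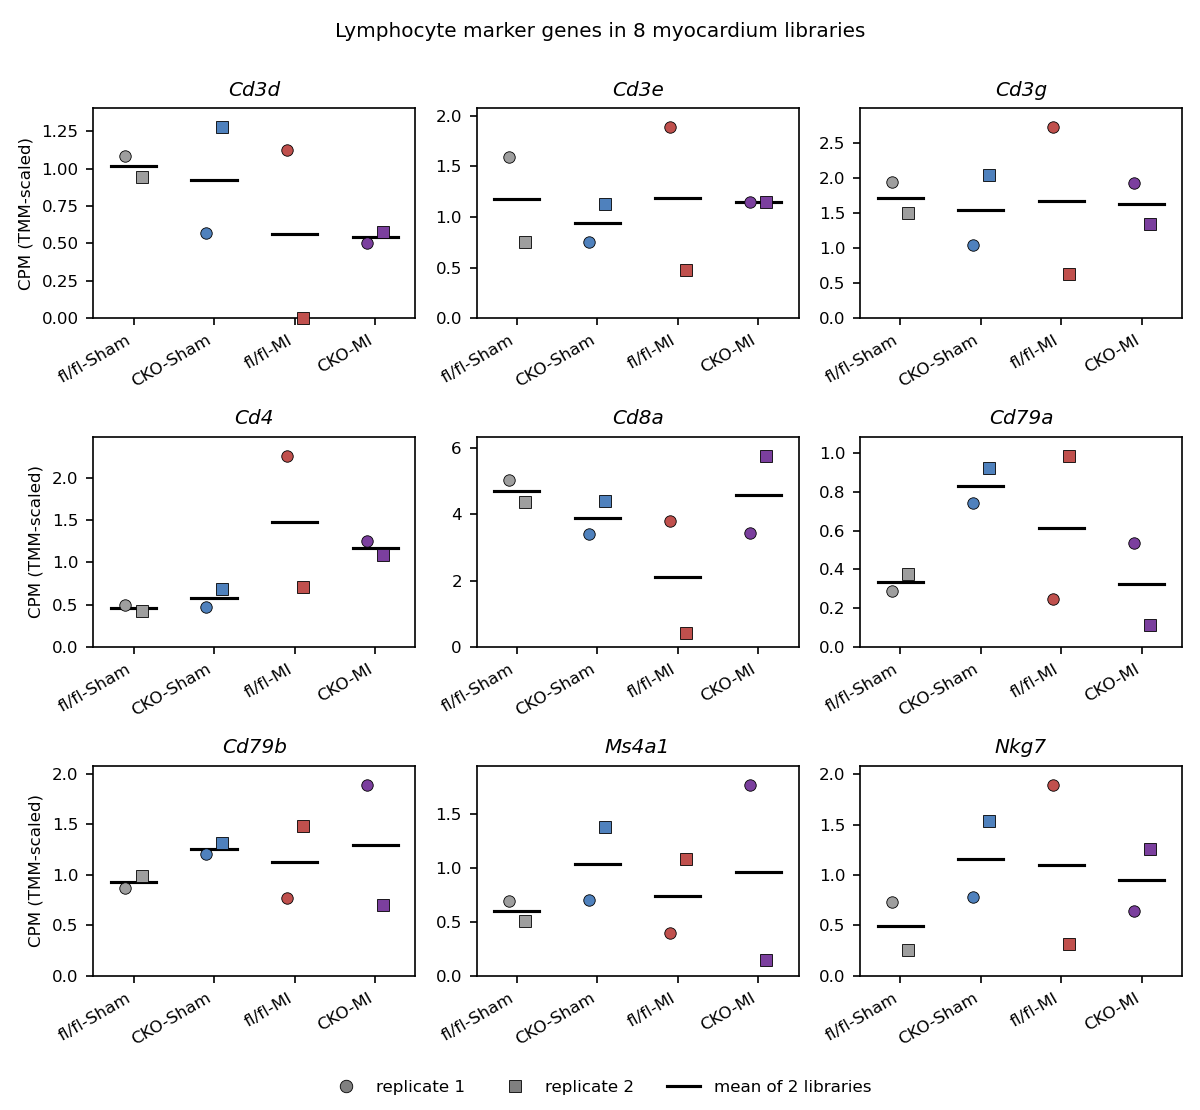
Level of each of the 9 genes in each library (y axis, CPM after TMM scaling, from 0; x axis, labelled group), with circles and squares for replicates 1 and 2 and a bar for the mean of 2 libraries. Only for Cd4 do all 4 MI libraries lie above all 4 sham libraries, and the 2 MI replicates of a group often lie further apart than the groups.

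The CD3 genes overlapped between MI and sham. Cd3d, the delta chain (ENSMUSG00000032094), had 1.08 and 0.944 CPM among fl/fl-Sham libraries, 1.12 and 0 CPM among fl/fl-MI libraries, 0.568 and 1.28 CPM among CKO-Sham libraries and 0.502 and 0.579 CPM among CKO-MI libraries. No read pair of Cd3d was counted in the library labelled fl/fl-MI replicate 2, against 30 pairs in replicate 1. The level in replicate 1 was 7.79-fold above the limit of 3 pairs for a count of 0. That fold leaves out the counting error of the 30 pairs (exact Poisson 95% interval 20.2 to 42.8). The pooled MI-minus-sham log2 fold change of Cd3d was −0.80 (SE 0.98, edgeR adjusted p = 0.551).

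Cd3e, the epsilon chain, had 1.59 and 0.755 CPM among fl/fl-Sham libraries, 1.89 and 0.480 CPM among fl/fl-MI libraries, 0.757 and 1.13 CPM among CKO-Sham libraries and 1.15 and 1.15 CPM among CKO-MI libraries. The highest and the lowest of the 8 values were thus the replicates of 1 group. Its fold change was 0.15 on the log2 scale (SE 0.48, edgeR adjusted p = 0.825). Cd3e overlaps the annotated genes Gm48719 and Gm48720 on both strands, and the strand setting of the count is not given in the sources used here. Its coding transcript carried 61.3% to 90.8% of the transcript FPKM of the gene and retained-intron forms the rest.

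Cd3g, the gamma chain, had 1.93 and 1.49 CPM among fl/fl-Sham libraries, 2.72 and 0.625 CPM among fl/fl-MI libraries, 1.04 and 2.04 CPM among CKO-Sham libraries and 1.92 and 1.33 CPM among CKO-MI libraries. As for Cd3e, both extremes were fl/fl-MI libraries. The pooled log2 fold change was 0.03 (SE 0.49, edgeR adjusted p = 0.970).

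Among the co-receptors, Cd4 rose after MI. It had 0.492 and 0.425 CPM among fl/fl-Sham libraries, 2.26 and 0.709 CPM among fl/fl-MI libraries, 0.473 and 0.679 CPM among CKO-Sham libraries and 1.26 and 1.09 CPM among CKO-MI libraries. Every MI library was above every sham library, though fl/fl-MI replicate 2 passed the highest sham library by little. The log2 fold change was 1.36 (SE 0.42, edgeR adjusted p = 0.0407), from a mean of 0.517 CPM in sham to 1.33 CPM in MI. The sham values rest on 7 to 10 read pairs each, and the MI values on 15 to 60. The call was lost in 7 of the 8 fits with 1 library left out, at adjusted p from 0.0815 to 0.134, and it became stronger without fl/fl-MI replicate 2 (log2 fold change 1.66, edgeR adjusted p = 0.00423). Some dendritic cells of the mouse carry CD4 or CD8 as well. Of 6 tested dendritic cell genes, Cd209a was called higher in MI and Zbtb46 and Clec9a were called lower, beside 37.4% of all tested genes. The list median was 1.24 on the log2 scale. It was 1.59 without fl/fl-MI replicate 2, in a fit that leaves 1 library in fl/fl-MI. The summed level of the 8 listed genes was 51.6 to 59.0 CPM in sham and 15.5 to 36.7 CPM in MI. Zbtb46 and Clec9a had the highest mean levels (26.7 and 8.52 CPM). Zbtb46 alone had 35.7 to 43.6 CPM in sham and 8.42 to 20.0 CPM in MI, so the sum mainly follows it and not the gene called higher. Itgax, the next of the list by mean level, had 1.12 to 2.42 CPM in sham. Which cells gave the Zbtb46 counts was not tested, and neither was the part of dendritic cells in the Cd4 value.

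Cd8a was the most counted of the 9 genes and was not called. It had 5.04 and 4.37 CPM among fl/fl-Sham libraries, 3.79 and 0.420 CPM among fl/fl-MI libraries, 3.39 and 4.40 CPM among CKO-Sham libraries and 3.43 and 5.75 CPM among CKO-MI libraries. In 7 libraries Cd8a lay between 3.39 and 5.75 CPM, and in the library labelled fl/fl-MI replicate 2 it was 9.02-fold below replicate 1. That low value rests on 9 read pairs (exact Poisson 95% interval 4.12 to 17.1, counting error only). The pooled log2 fold change was −0.46 (SE 0.58, edgeR adjusted p = 0.565), and −0.04 without that library. Cd8b1, the other CD8 chain, had counts of 29.1% to 77.1% of those of Cd8a. Cd8a reads were shared among 2 coding transcripts and 1 retained-intron form, the last with a median of 23.1% of its transcript FPKM.

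Because Cd4 was higher in MI and Cd8a was not, their balance was set out per library, per gene length. The Cd4 to Cd8a ratio of FPKM was 0.0872 and 0.0860 among fl/fl-Sham libraries, 0.535 and 1.55 among fl/fl-MI libraries, 0.123 and 0.139 among CKO-Sham libraries and 0.329 and 0.169 among CKO-MI libraries. The 4 MI ratios were all above the 4 sham ratios, the nearest being 0.169 in CKO-MI replicate 2 and 0.139 in CKO-Sham replicate 2. The ratio was chosen after Cd4 was seen to be higher, so its separation is no separate result. The ratio of 1.55 came from the library with the low Cd8a. In bulk tissue, fewer cells of a type and less RNA per cell cannot be told apart.

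**Figure D2:**
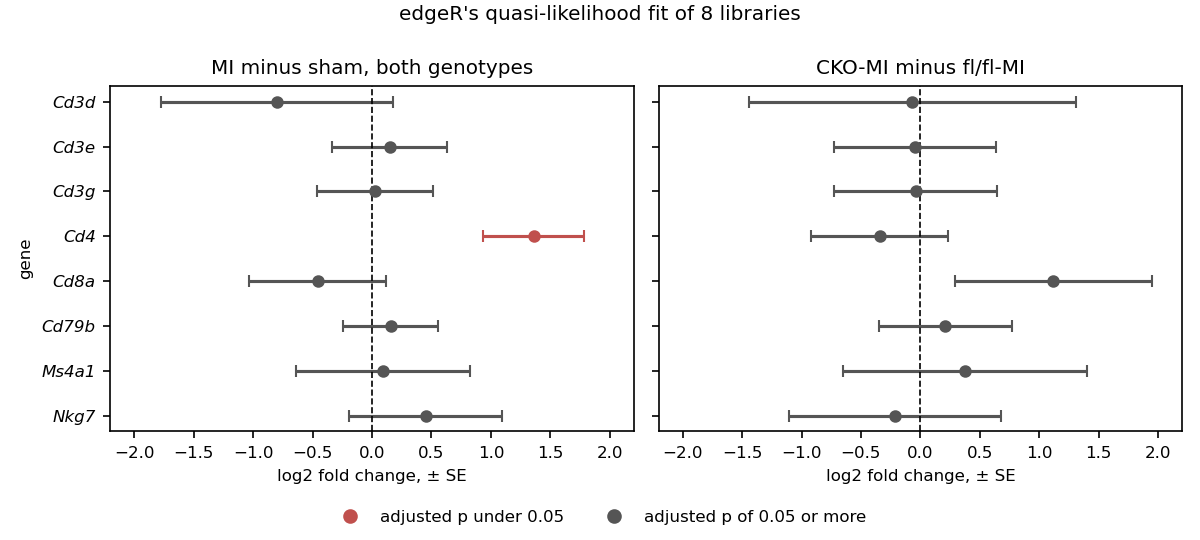
Log2 fold changes of the 8 tested genes (x axis, point with bar of 1 SE on each side) for MI minus sham over both genotypes (left) and for CKO-MI minus fl/fl-MI as labelled (right). Cd4 at 1.36 is the only point past an adjusted p of 0.05, and in the right panel no gene is.

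The B cell genes varied mainly between replicates. Cd79a, the alpha chain of the B cell receptor complex, had 0.288 and 0.378 CPM among fl/fl-Sham libraries, 0.245 and 0.985 CPM among fl/fl-MI libraries, 0.744 and 0.921 CPM among CKO-Sham libraries and 0.538 and 0.114 CPM among CKO-MI libraries. These stand for 3 to 20 read pairs, and the gene was below the count limit of the test. Without that limit its pooled log2 fold change was −0.20 (SE 0.58, edgeR adjusted p = 0.9999).

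Cd79b, the beta chain, had 0.865 and 0.991 CPM among fl/fl-Sham libraries, 0.764 and 1.48 CPM among fl/fl-MI libraries, 1.20 and 1.31 CPM among CKO-Sham libraries and 1.89 and 0.704 CPM among CKO-MI libraries. The 4 sham values lay between the lowest and the highest MI values. The log2 fold change was 0.16 (SE 0.40, edgeR adjusted p = 0.782).

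Ms4a1 had 0.695 and 0.504 CPM among fl/fl-Sham libraries, 0.396 and 1.08 CPM among fl/fl-MI libraries, 0.703 and 1.37 CPM among CKO-Sham libraries and 1.77 and 0.145 CPM among CKO-MI libraries. The CKO-MI replicates were 12.2-fold apart, 37 read pairs against 4. The pooled log2 fold change was 0.09 (SE 0.73, edgeR adjusted p = 0.933), and it was −1.30 without CKO-MI replicate 1 (edgeR adjusted p = 0.129). Ms4a1 overlaps 4930526L06Rik on the opposite strand.

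Nkg7 had 0.729 and 0.252 CPM among fl/fl-Sham libraries, 1.897 and 0.312 CPM among fl/fl-MI libraries, 0.784 and 1.54 CPM among CKO-Sham libraries and 0.645 and 1.26 CPM among CKO-MI libraries. The ranges of sham and MI overlapped nearly whole. Its pooled log2 fold change was 0.45 (SE 0.64, edgeR adjusted p = 0.611).

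Over both genotypes, 1 of the 8 tested genes was therefore called between MI and sham, beside 37.4% of all 15944 tested genes. Separation without overlap was seen for 1 of the 9, Cd4, beside 38.1% of the tested genes. The median log2 fold change of the 8 was 0.12, and that of all tested genes 0.04. On the authors' FPKM scale, log2(FPKM + 0.1), the median of all tested genes was 0.53 higher in MI, and Cd4 was 1.20 higher (limma adjusted p = 0.0191).

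Within each genotype label the calls were fewer. In fl/fl-MI against fl/fl-Sham, Cd4 had a log2 fold change of 1.69 (SE 0.60, edgeR adjusted p = 0.0949) and Cd8a one of −1.15 (SE 0.83, edgeR adjusted p = 0.363). None of the 8 was called by edgeR or by DESeq2, beside 16.3% of all tested genes, and 1, Cd4, had an unadjusted p under 0.05, beside 34.5%. Cd4 and Cd8a did not overlap between these groups, which also held for 60.6% of all tested genes. With fl/fl-MI replicate 2 left out, Cd4 was 2.30 and Cd8a was −0.31. With replicate 1 left out, Cd8a was −3.52. Each of these fits leaves 1 library in fl/fl-MI.

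In CKO-MI against CKO-Sham the Cd4 value was 1.02 (SE 0.59, edgeR adjusted p = 0.248). Of the 8 genes 0 were called by edgeR or DESeq2, and 0 had an unadjusted p under 0.05, beside 21.7% and 37.9% of all tested genes by edgeR. Cd3e, Cd4 and Cd79a did not overlap between the groups, beside 70.9% of all tested genes.

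Whether the Piezo1 deletion changed these genes in the infarcted heart was asked with CKO-MI against fl/fl-MI, as labelled. All 9 genes overlapped between the groups, whereas 30.6% of all tested genes did not. The log2 fold changes were −0.07 for Cd3d (SE 1.38), −0.05 for Cd3e (SE 0.68), −0.04 for Cd3g (SE 0.69) and −0.34 for Cd4 (SE 0.57). For Cd8a the value was 1.12 (SE 0.83, edgeR adjusted p = 0.732). The B cell and cytotoxic genes gave 0.21 for Cd79b (SE 0.56), 0.37 for Ms4a1 (SE 1.03) and −0.22 for Nkg7 (SE 0.89).

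None of these was called by edgeR, where 0% of all tested genes were, or by DESeq2, which called 249 genes. At an unadjusted p under 0.05 the count was 0 of 8, beside 8.74% of all tested genes. With SEs of 0.56 to 1.38 on the log2 scale, a change of 2-fold was under 2 SEs for each of the 8 genes. Without fl/fl-MI replicate 2, whose Esr1 level went against its label, the 8 values ran from −1.05 for Cd3d to 1.26 for Ms4a1 and none was called. With fl/fl-MI replicate 1 left out, the comparison was set against that library alone. Cd8a was then 3.47 higher in CKO-MI on the log2 scale, and Cd3d was set against a value of 0.

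In sham hearts, 4 of the 9 genes did not overlap between the labels, all with both CKO-Sham values above both fl/fl-Sham values. These were Cd79a, Cd79b, Ms4a1 and Nkg7, and separation of this kind was seen in 46.4% of all tested genes. The fold changes were 0.44 for Cd79b (SE 0.57), 0.79 for Ms4a1 (SE 1.05) and 1.24 for Nkg7 (SE 0.93) on the log2 scale. With 1 library left out, Ms4a1 ran from 0.23 without CKO-Sham replicate 2 to 1.20 without CKO-Sham replicate 1, and Nkg7 from 0.67 without fl/fl-Sham replicate 2 to 2.19 without fl/fl-Sham replicate 1. None of the 8 was called by edgeR or DESeq2 (edgeR adjusted p = 1 for each), beside 0.00627% of all tested genes by edgeR, which is 1 gene. None had an unadjusted p under 0.05, beside 3.85%. The Esr1 values gave no sign of the transgene in either group.

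The test of whether the MI effect differed between the genotype labels called none of the 8 genes by edgeR or DESeq2, beside 0% of all tested genes by edgeR. At an unadjusted p under 0.05 it was again 0 of 8, beside 8.63%. The largest differences in size were −1.46 for Nkg7 (SE 1.29, edgeR adjusted p = 0.772) and 1.39 for Cd8a (SE 1.16, edgeR adjusted p = 0.761). Without fl/fl-MI replicate 1 they were 0.38 and 3.73, and without replicate 2 they were −2.23 and 0.55. Each of these fits leaves 1 library in fl/fl-MI.

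The larger pattern ran between libraries of 1 label. All 5 T cell genes and Nkg7 were lowest of the MI libraries in fl/fl-MI replicate 2, as were 34.3% of all tested genes. In fl/fl-MI replicate 1, 4 of the 5 T cell genes and Nkg7 were highest of the MI libraries, as were 24.1%. The 3 B cell genes were lowest of the MI libraries in CKO-MI replicate 2, as were 19.7%. Of all 8 libraries, 4 of the 5 T cell genes were lowest in fl/fl-MI replicate 2 and the 3 B cell genes in CKO-MI replicate 2. The share of all tested genes is not given for these last counts, so nothing particular to these genes is drawn from them. The summed CPM of the 3 CD3 genes over that of the 3 B cell genes was 2.50 and 1.71 in fl/fl-Sham and 0.893 and 1.23 in CKO-Sham. It was 4.07 and 0.312 in fl/fl-MI and 0.852 and 3.18 in CKO-MI. In each MI group, 1 library thus lay above and 1 below all 4 sham ratios. In CKO-MI the lower ratio, 0.852, was only just under the lowest sham ratio, 0.893, and this gap was not tested.

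**Figure D3:**
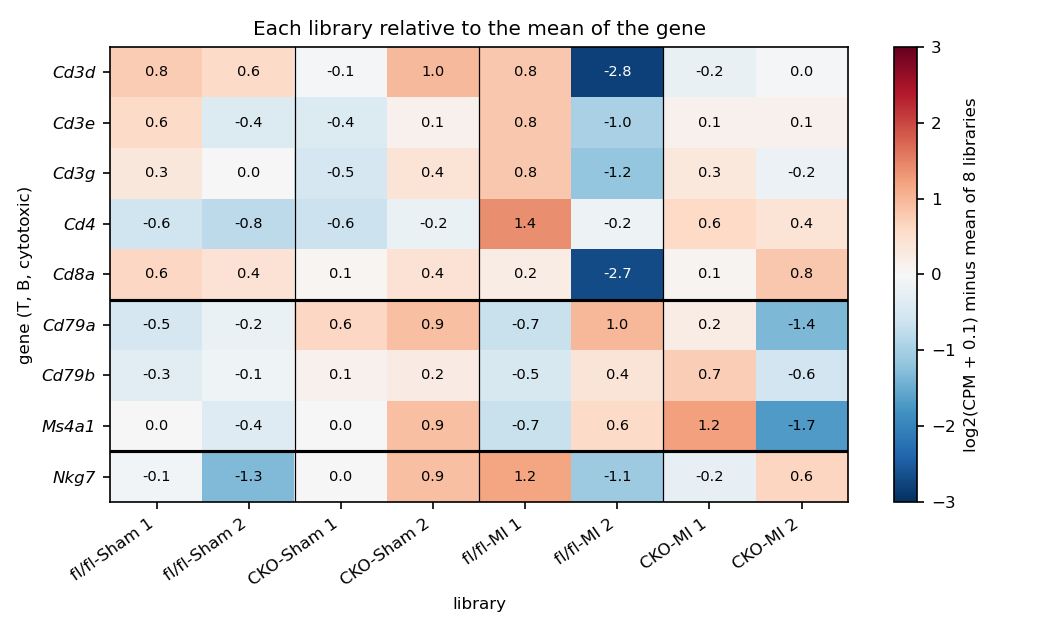
Each gene in each library as log2(CPM + 0.1) minus its mean over the 8 libraries (colour and printed number, red above and blue below the mean), with lines between T, B and cytotoxic genes and between groups. The column of fl/fl-MI replicate 2 is blue for the T cell genes and Nkg7 and red for the B cell genes, and in the column of CKO-MI replicate 2 the B cell genes are blue.

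Wider lists showed how far this reached. Of 28 listed T cell genes 27 were tested, and 22 of them were lowest of the MI libraries in fl/fl-MI replicate 2, as were 34.3% of all tested genes. The summed level of the list was 48.5 to 60.7 CPM in sham, 51.1, 44.9 and 47.9 CPM in the other MI libraries and 23.6 CPM in that library. Of 8 tested genes of the cytotoxic and natural killer list, 6 were lowest there. Ctsw, a protease of cytotoxic cells, had 0.132 CPM there and 0.960 to 1.81 CPM elsewhere. Ptprc, the CD45 gene of all white blood cells, had 24.2 CPM there and 28.3 to 47.1 CPM elsewhere. In fl/fl-MI replicate 1, 7 of 8 pan-leukocyte genes and 9 of 10 macrophage genes were highest of the MI libraries, beside 24.1% of all tested genes.

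Of the listed B cell genes, 8 of 12 tested were highest of the MI libraries in fl/fl-MI replicate 2, as were 33.6% of all tested genes. Their summed level was 114 CPM there against 45.0 to 60.6 CPM in the other MI libraries. Immunoglobulin transcripts made up most of it, with Ighm at 61.4 CPM and Igkc at 29.7 CPM.

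Neutrophil genes summed to 1.60 and 8.38 CPM in the fl/fl-MI pair, 4.47 and 0.931 CPM in the CKO-MI pair and 4.62 to 7.26 CPM in sham, and 3 of 4 tested neutrophil genes were lowest of the MI libraries in CKO-MI replicate 2, beside the same 19.7%. Atrial genes were highest where the T cell genes were lowest. Lung epithelium genes, at 0 in 6 libraries, had 1.04 CPM in fl/fl-MI replicate 2 and 0.114 CPM in CKO-MI replicate 2. Red cell genes summed to 79.2 to 548 CPM in sham and 275 to 752 CPM in MI. The part of atrial tissue, blood or lung in the lymphocyte values was not tested. Thymocyte and thymus genes summed to 11.4 CPM in fl/fl-MI replicate 2, 4.58 to 5.08 CPM in the other MI libraries and 7.27 to 9.55 CPM in sham, and both tested ones were highest of the MI libraries there. These were Cd1d1 and Arpp21, which made up most of the sum. Cd1d1 had 5.82 CPM in fl/fl-MI replicate 2, within its sham range of 5.60 to 6.51 CPM. Arpp21 had 5.34 CPM in that library and 0.850 to 2.80 CPM elsewhere. Prss16, a thymus protease too low to be tested, was at or under 0.155 CPM in every library.

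**Figure D4:**
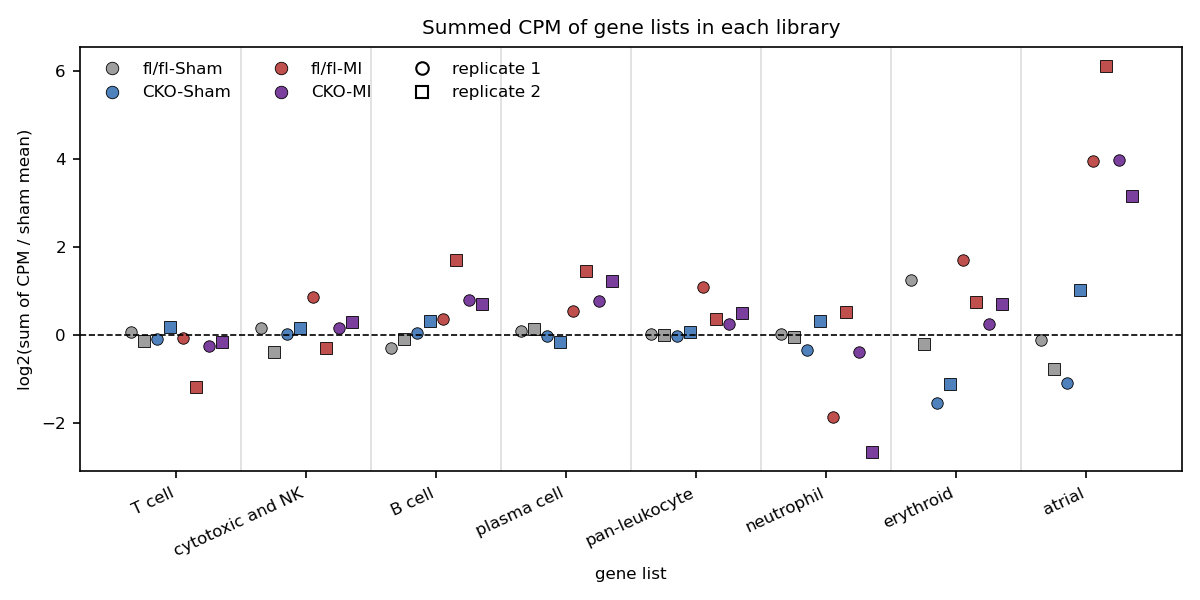
Summed CPM of 8 gene lists in each library relative to the mean of the 4 sham libraries (y axis, log2 ratio), with colours for labelled groups and circles and squares for replicates 1 and 2. T cell genes lie near or below 0 with fl/fl-MI replicate 2 lowest, B and plasma cell genes lie above 0 in all 4 MI libraries, and atrial genes are highest in fl/fl-MI replicate 2.

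Within the T cell list the MI comparison called few genes. Beside Cd4, which was higher, 2 of 27 tested genes were lower and 24 were not called, with a median log2 fold change of −0.14. The list counts and their share of 3 in 27 stand beside the 37.4% called over all tested genes. Il7r, the receptor of a T cell survival cytokine, was the most abundant and was not called (log2 fold change −0.50, edgeR adjusted p = 0.224). Ctla4, an inhibitory receptor of activated and regulatory T cells, was at 5.23 to 6.50 CPM in sham and 0.683 to 1.38 CPM in MI. It fell by 2.46 on the log2 scale (SE 0.27, edgeR adjusted p = 0.00112). Cd247, the zeta chain of the T cell receptor complex, fell by 1.33 (SE 0.34, edgeR adjusted p = 0.0215), and it is named after its values were seen. The list median was 0.04 without fl/fl-MI replicate 2 and −0.71 without replicate 1, in fits that leave 1 library in fl/fl-MI.

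In the B cell list 12 of 19 genes were tested, and Ighm, Igkc and Blk were called higher and none lower, 3 of 12 beside 37.4% of all tested genes. The median was 0.18. Without fl/fl-MI replicate 2 the same 3 genes were called higher, Bank1 and Ighd were called lower and the median was −0.09, in a fit that called 7641 of all tested genes. Ighm, the heavy chain of IgM, had 11.2 to 18.1 CPM in sham and 19.7, 61.4, 27.9 and 27.6 CPM in MI. Its log2 fold change was 1.23 (SE 0.33, edgeR adjusted p = 0.0249). Igkc, the kappa light chain, rose by 1.80 (SE 0.32, edgeR adjusted p = 0.00593). Blk, a B cell kinase named after its values were seen, rose by 1.40 (SE 0.30, edgeR adjusted p = 0.0104). Cd37, a tetraspanin of B cells, was not called (log2 fold change −0.03, edgeR adjusted p = 0.914).

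Of 9 plasma cell genes 6 were tested, and Jchain and Ighg2b were called higher, 2 of 6 beside 37.4% of all tested genes, with a list median of 1.76. Jchain, which joins antibody units into polymers, had 1.83 to 2.34 CPM in sham and 4.53 to 13.5 CPM in MI. It rose by 1.67 on the log2 scale (SE 0.34, edgeR adjusted p = 0.00950). Igha, the heavy chain of IgA and the most abundant of the list, was not called (log2 fold change 0.56, edgeR adjusted p = 0.0701), nor was Ighg2c (1.86, edgeR adjusted p = 0.0742). The list median was 0.90 without fl/fl-MI replicate 2, in a fit that leaves 1 library in fl/fl-MI.

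In the cytotoxic and natural killer list 8 of 21 genes were tested and 1, Txk, was called, beside 37.4% of all tested genes. Txk, a kinase of T and natural killer cells named after its values were seen, fell by 1.60 (SE 0.42, edgeR adjusted p = 0.0231). The list median was 0.46 with all 8 libraries. It was 0.58 without fl/fl-MI replicate 2 and −0.15 without replicate 1, in fits that leave 1 library in fl/fl-MI. Il2rb, a chain of the interleukin-2 receptor, had the highest level and was not called (log2 fold change 0.47, edgeR adjusted p = 0.228), and neither was Ctsw with all 8 libraries (−0.34, edgeR adjusted p = 0.719). Of 8 pan-leukocyte genes Laptm5, Cd53 and Cytip were called higher and none lower, 3 of 8 beside 37.4% of all tested genes. The list median was 0.52, and 0.72 without fl/fl-MI replicate 2. Laptm5, a lysosomal protein of blood cells, rose by 0.91 (SE 0.17, edgeR adjusted p = 0.00765), while Ptprc was not called with all 8 libraries (0.15, edgeR adjusted p = 0.608). Cxcl13, a B cell attractant of the lymphoid stroma list, rose by 3.20 (SE 0.70, edgeR adjusted p = 0.0120), from 0.798 to 1.57 CPM in sham to 13.1, 27.6, 1.21 and 12.0 CPM in MI. In CKO-MI replicate 1 it was within the sham range. The lists of other cell types were measured for context. Of 10 macrophage genes Adgre1, Csf1r and Lyz2 were called higher and Mertk lower, a share near the 37.4% of all tested genes. All 5 red cell genes were called higher, beside the same 37.4%, with a list median of 1.28. That median was 1.42 without fl/fl-MI replicate 2 and 0.93 without replicate 1, in fits that leave 1 library in fl/fl-MI. None of 4 tested neutrophil genes or 2 tested thymus genes was called. Without fl/fl-MI replicate 2 the list median moved from 0.53 to 0.55 for macrophage genes and from −0.74 to −1.59 for neutrophil genes. It moved from −0.26 to −0.65 for thymus genes and from 0.58 to 0.87 for lymphoid stroma genes. That fit leaves 1 library in fl/fl-MI.

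**Figure D5:**
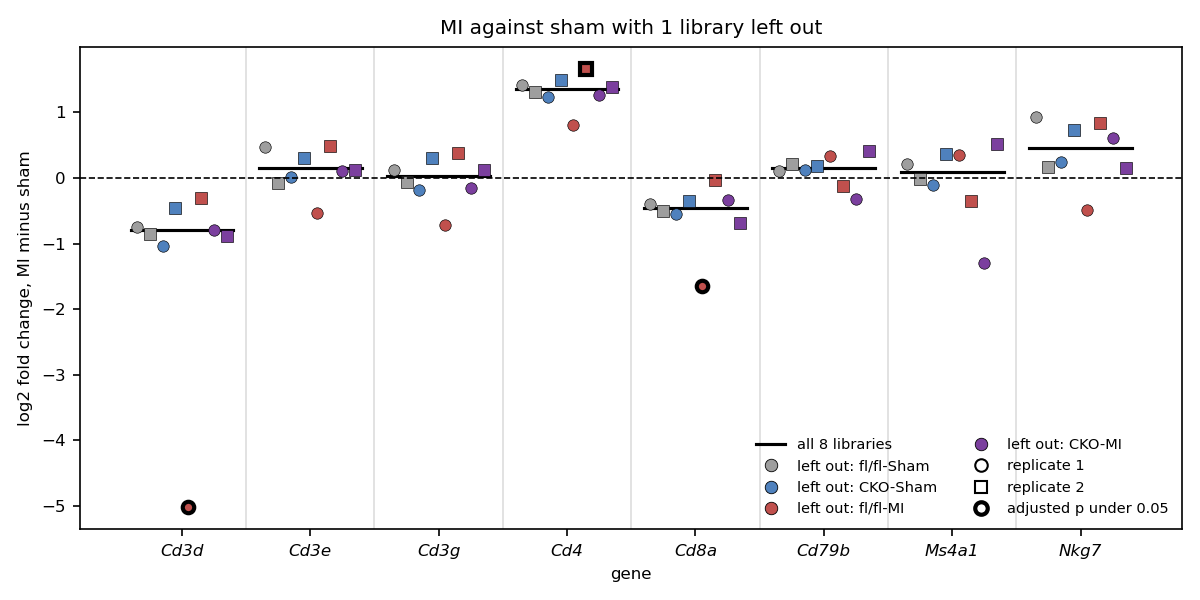
Pooled MI-minus-sham log2 fold change of each tested gene (y axis) with all 8 libraries (bar) and after leaving out 1 library at a time (colour for the labelled group, circle or square for the replicate, thick outline for an adjusted p under 0.05). Leaving out fl/fl-MI replicate 1 moves Cd3d to −5.02 and Cd8a to −1.65, and leaving out replicate 2 of that group is the only omission that keeps Cd4 called.

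Leaving out single libraries showed which MI values turned on 1 library. Without fl/fl-MI replicate 1, Cd8a was −1.65. The fold of Cd3d is then no measure of size, because the 1 fl/fl-MI library left was at 0. Without fl/fl-MI replicate 2 the T cell genes other than Cd4 gave values from −0.31 for Cd3d to 0.48 for Cd3e, and none of these was called.

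The genes whose profile over the 8 libraries was closest to that of Cd3e were Trbc2, Gm527, Gm17655, Ptprc and Tgif1, by the root mean square difference of centred log2 CPM. Trbc2, a constant segment of the T cell receptor beta chain, was nearest at 0.135, where the median of all tested genes was 0.515. It had 1.27 to 1.85 CPM in sham, 2.60 and 0.793 CPM in the fl/fl-MI pair, and 1.52 and 1.93 CPM in the CKO-MI pair. For Nkg7 they were Atp6v0d2, Tagap, 2900041M22Rik, Tubgcp4 and Tcp11l1, at 0.189 to 0.262 against 0.651. These distances describe 8 libraries and carry no test.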

How the data were processed

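RNA sequencing of 8 libraries of mouse myocardium was analysed, grouped by their deposited labels into 4 groups of 2. Per the labels and the methods, poly(A) libraries with the U-labelled second strand removed were sequenced as read pairs, and the submitters' processing notes name cutadapt 1.9 and FastQC. The aligner, counter, strand setting and annotation are not given in the sources used here. The authors deposited whole-number counts per gene and transcript, not normalized, and FPKM, scaled by the authors to length and library size. Coordinates in the deposited table follow GRCm38, where 7 of the 9 genes match GENCODE M21.

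Counts were tested with edgeR 4.0.16 (R 4.3.3), a quasi-likelihood fit of group means over all 8 libraries with TMM, on genes with a mean count of at least 40, with Benjamini-Hochberg adjustment over 15944 genes and calls at an adjusted p under 0.05. Depth was 73821747 to 88117573 counts (18455437 to 22029393 pairs if 4 counts are 1 pair), so 1 pair is worth 0.0377 to 0.0678 CPM. Intervals and limits for 0 cover counting error only. The fits were tested on simulated data. Alternatives were RLE size factors, DESeq2 1.42.0, a mean FPKM of at least 0.5 as filter, no filter, limma 3.58.1 on log2(FPKM + 0.1) and log2(FPKM + 1), counts divided by 4, a replicate block, the 4 libraries of a comparison alone, and each library left out. A block with the numbers of fl/fl-MI swapped was added after seeing the data. Tables were handled with pandas 2.3.3 and SciPy 1.17.1. Promoters came from RefSeq.

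The genes named were the 9 markers, the up to 3 most abundant genes of each cell type list, and the 5 nearest profiles to Cd3e, Cd79a and Nkg7, of which those to Cd79a are not reported here. Ctla4 is among the 3 most abundant T cell genes. Genes called in a list are also named, after their values were seen. The markers and lists were chosen with earlier results of these data known.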

Additional observations from a re-analysis of the deposited data

How the results depend on the processing

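Of the counts over all genes, those for MI against sham (5967 genes) kept within 1.5 times under every alternative fit to all 8 libraries, but an unadjusted p under 0.05 with 2-fold change gave 2648. The balance of directions did not keep. By edgeR 3307 genes were higher and 2660 lower, and by limma with a pseudocount of 0.1 these were 7472 and 909. For fl/fl-MI against fl/fl-Sham (2605), DESeq2 gave 4202, limma 5603 and 5325 with pseudocounts of 0.1 and 1, the 4 libraries alone 116 and the replicate block 1688. For CKO-MI against CKO-Sham (3452), limma with 0.1 gave 5387. For CKO-MI against fl/fl-MI (0), DESeq2 gave 249 and the 2-fold rule 640. For CKO-Sham against fl/fl-Sham (1), DESeq2 gave 38, no filter 4, limma 2 and 3, the 4 libraries alone 167, both replicate blocks 0 and the 2-fold rule 190. For the interaction (0), these were 141 with DESeq2, 1 without a filter and 755 with the 2-fold rule. With 1 library left out the counts ran from 3203 to 7641 for MI against sham, 88 to 4397 and 6 to 6117 within fl/fl and CKO, 0 to 1914 for CKO-MI against fl/fl-MI, 0 to 8 in sham and 0 to 916 for the interaction. Where a fit leaves a group with 1 library, the lone library is taken to have the spread of the others.

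Of the lymphocyte genes, the 1 call for MI against sham, Cd4, was lost with the replicate block (1.29, adjusted p = 0.0655 by edgeR), with the swapped block described below (edgeR adjusted p = 0.0527) and with the FPKM filter, which does not test Cd4, giving 0 calls. Left-out libraries gave 0 to 2 calls there, 0 to 2 in the interaction, within fl/fl and for CKO-MI against fl/fl-MI, then 0 in CKO-MI against CKO-Sham and in sham. The pooled values ran from −5.02 to −0.31 for Cd3d, −0.53 to 0.48 for Cd3e, −0.71 to 0.38 for Cd3g, 0.80 to 1.66 for Cd4, −1.65 to −0.04 for Cd8a, −0.32 to 0.41 for Cd79b, −1.30 to 0.51 for Ms4a1 and −0.49 to 0.93 for Nkg7. For CKO-MI against fl/fl-MI they ran from −1.05 to 8.33 for Cd3d (where fl/fl-MI was 1 library at 0), −0.72 to 1.28 for Cd3e and −0.74 to 1.41 for Cd3g. In that comparison they were −0.95 to 0.75 for Cd4 and 0.28 to 3.47 for Cd8a. The B cell and cytotoxic genes gave −0.66 to 0.80 for Cd79b, −2.33 to 1.31 for Ms4a1 and −0.99 to 1.63 for Nkg7. For the interaction Nkg7 ran from −2.41 to 0.38.

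Values near 0 also changed sign between fits. With the replicate block, Cd3g in MI against sham was −0.10. In CKO-MI against fl/fl-MI it gave Cd3d 0.23, Cd3e 0.13, Cd3g 0.0747 and Nkg7 0.0294. With limma on log2(FPKM + 0.1), Cd3d was 0.57, Cd3e 0.10, Cd3g 0.15, Ms4a1 −0.0025 and Nkg7 0.13 in that comparison. With log2(FPKM + 1), Cd3d was 0.0085 there, and Cd8a in MI against sham was 0.0392. The cause of these changes was not tested. The replicate differences of 2 groups correlated at −0.16 to 0.04 across genes. With 1 difference per group, these values cannot settle whether the replicate numbers pair the libraries. The block changed no other call of the lymphocyte genes. The lowest correlation, between fl/fl-MI and CKO-MI, led to the swapped block, which called 0 genes in CKO-Sham against fl/fl-Sham. With 3 to 139 read pairs per gene and library above 0, counting error alone is wide for the B cell genes.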
